A study of Mus musculus with 4 samples.

Results

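The rows described here are those of the replication-dependent histone genes, chosen by gene name: every row of the authors' gene table whose name begins with Hist1h, Hist2h, Hist3h or Hist4h. There were 68 such rows among 24346. By histone type they comprised 6 H1, 18 H2A, 19 H2B, 12 H3 and 13 H4 rows. Of the 68 rows, 27 reached an FPKM (fragments per kilobase of transcript, scaled to library depth) of at least 1 in 2 or more of the 4 libraries, and those are reported row by row. The 27 were made up of 4 H1, 4 H2A, 7 H2B, 3 H3 and 9 H4 rows.

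The cells were regulatory T (Treg) cells, the Foxp3-expressing CD4+ T cells that restrain immune responses, sorted as CD4+, Thy1.2+ and Foxp3-Cre-GFP+ from spleens of male mice at 16 weeks of age. All mice carried Foxp3-Cre, which acts in cells that express Foxp3. One group was wild type for Tcf1 and Lef1 (WT, libraries WT_0 and WT_1). The other came from double floxed mice and is labelled Tcf1-/-Lef1-/- (dKO, libraries dKO_0 and dKO_1). Each group had 2 libraries, and the sources used here do not give the number of mice behind a library. Tcf7, the gene of Tcf1, stood at 345, 309, 247 and 249.6 FPKM in WT_0, WT_1, dKO_0 and dKO_1, and Lef1 at 59.9, 66.5, 41.3 and 36.0 FPKM. Both genes were lower in both dKO libraries, and neither was called (limma adjusted p = 0.158 and 0.113). Which exons were floxed is not given in the sources used here, so a level over the whole gene does not measure the deletion. Foxp3 itself stood at 113, 121, 133 and 144 FPKM.

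Replication-dependent histone genes supply the core histones H2A, H2B, H3 and H4 and the linker histone H1 that package newly made DNA, and they are transcribed mainly in S phase. Their transcripts have no introns and end in a conserved stem-loop in place of a poly(A) tail. The stem-loop is bound by SLBP, the stem-loop binding protein, and NPAT, a substrate of cyclin E-CDK2, drives transcription of the genes in histone locus bodies. Many copies encode the same or nearly the same protein. The label gives total RNA and a standard library protocol, and the sources used here do not give whether poly(A) tails were selected.

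The genes lie in 4 clusters of the mouse genome (GRCm38.p6 coordinates from RefSeq). The Hist1 cluster, with 54 rows, of which 53 were placed, spans chromosome 13 from 21715711 to 23934913. The 10 Hist2 rows lie on chromosome 3 from 96219885 to 96270192, the 3 Hist3 rows on chromosome 11 from 58948911 to 58955192, and Hist4h4 on chromosome 6 from 136803993 to 136804431.

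A stem-loop was found after the coding sequence in GENCODE M21 transcripts of 46 of the 68 rows and of 19 of the 27 rows reported in full. One 16-base form was shared by 26 H1, H2A, H2B and H3 rows, and another by 7 H4 rows. The sequences below are shown because the loop is the end that sets these transcripts apart from polyadenylated ones, and they cover forms carried by rows described below. Of the 17 rows whose libraries did not overlap between the groups, 6 had no match, and the most common form was also carried by rows that overlapped, such as Hist1h1c. Each is written 5′ to 3′ as DNA, with the loop and its stem in capitals and 7 bases on either side in lower case.
Hist1h1e, H1, minus strand, loop at chr13:23621782-23621797: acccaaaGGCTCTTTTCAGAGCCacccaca
Hist3h2a, H2A, plus strand, loop at chr11:58955172-58955187: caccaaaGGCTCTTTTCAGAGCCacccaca
Hist2h2ac, H2A, minus strand, loop at chr3:96220418-96220433: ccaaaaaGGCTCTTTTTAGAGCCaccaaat
Hist1h4d, H4, plus strand, loop at chr13:23581950-23581965: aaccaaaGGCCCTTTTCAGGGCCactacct
Hist1h4i, H4, minus strand, loop at chr13:22040966-22040981: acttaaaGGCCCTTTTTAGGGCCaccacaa
Hist1h4b, H4, plus strand, loop at chr13:23757366-23757381: tacaaaaGGTCCTTTTCAGGACCactcact
The H1 and H2A loops printed here share their stem, and the H4 loops have other stems. In 13 of the 27 rows the annotated transcript ran more than 100 bases past the loop. A poly(A) signal word (AATAAA or ATTAAA) stood within the last 60 bases of the annotated transcript in 8 of the 27: Hist1h1c, Hist3h2a, Hist3h2ba, Hist2h2be, Hist1h4i, Hist1h4j, Hist2h4 and Hist4h4. The median of the mean WT level was 5.97 FPKM over those 8 rows and 1.11 FPKM over the other 19.

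Levels were low for nearly all histone rows. For 53 of the 55 rows above 0, the FPKM values were whole multiples of what 1 fragment is worth in each library. The fragments behind a value could be read from the values and the RefSeq length for 42 rows, 24 of them among the 27. Relative to WT_0, sequencing depth read this way was 1.21 in WT_1, 1.22 in dKO_0 and 1.31 in dKO_1, or these ratios include a library scaling by the authors. Over those 42 rows the fragments summed to 777, 971, 1061 and 1170 in WT_0, WT_1, dKO_0 and dKO_1. Many single rows rest on fewer than 20 fragments in a library, and intervals quoted below cover counting error alone.

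None of the 27 histone rows was called. The test was limma on log2(FPKM + 1) over all 11595 rows that passed the same level filter, with a call at a Benjamini-Hochberg adjusted p under 0.05, and it called 40 rows in all, which is 0.345% of those tested. At an unadjusted p under 0.05, 7 histone rows were higher and 2 lower in dKO, against a background of 9.64% of all rows higher and 7.08% lower. Both dKO libraries lay above both WT libraries in 14 of the 27 histone rows (background 27.8%) and below them in 3 (background 23.4%), and the libraries overlapped in the other 10. The median log2 difference, dKO minus WT, was 0.40 over the 27 rows and 0.01 over all rows tested. Hist1h1b and Hist1h2bj passed the level filter through the dKO libraries alone. Hist1h2ai, Hist1h2ak, Hist2h2ac, Hist2h2bb, Hist1h3d and Hist1h4j reached 1 FPKM in both dKO libraries but in only 1 WT library. Hist1h2bg and Hist1h3a reached it in both WT libraries and in 1 dKO library. These counts of the 27 rows are therefore a description and not support for a difference. Over all 55 rows above 0 in some library, whatever their level, the dKO mean was higher in 36 (65.5%), and the libraries were apart with dKO above in 20 (36.4%) and with dKO below in 5 (9.09%). Over all 17613 rows of the table above 0 in some library, these shares were 47.8%, 21.5% and 22.1%. With 1 library left out at a time, 9 of the 27 differences kept their sign and moved by at most 1.5 times wherever the row still passed the filter: Hist1h1e, Hist3h2a, Hist1h2ak, Hist2h2ac, Hist1h2bc, Hist2h2be, Hist1h2bj, Hist1h4i and Hist1h4d. Hist1h2bj did not pass without either dKO library, so its difference was checked only with a WT library left out (0.29 to 0.57). Fragments of near-identical genes can match several rows, so rows cannot be taken as independent of one another.

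**Figure D1:**
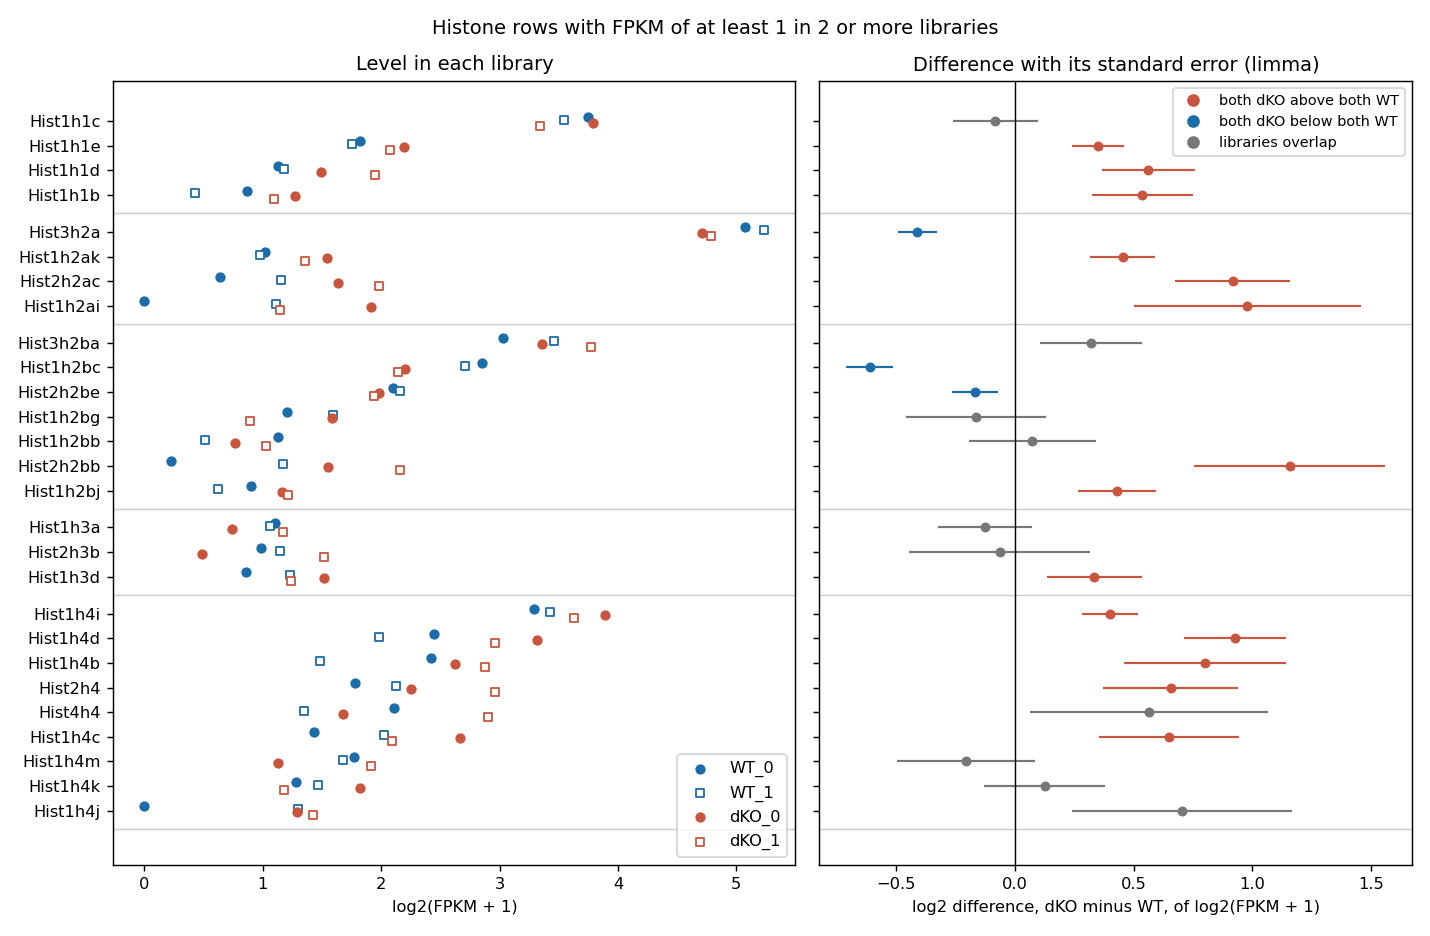
Each line is 1 of the 27 histone rows, grouped from the top as H1, H2A, H2B, H3 and H4. The left panel gives log2(FPKM + 1) in each library and the right panel the dKO minus WT difference on that scale with its limma standard error (n = 2 libraries per group). Colours in the right panel mark the 14 rows with both dKO libraries above both WT libraries, the 3 with both below, and the 10 that overlap.

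Among linker histones, which bind DNA where it enters and leaves the nucleosome, Hist1h1c stood highest, at 12.4, 10.7, 12.8 and 9.13 FPKM in WT_0, WT_1, dKO_0 and dKO_1. Its libraries overlapped, with a log2 difference of -0.08 (SE 0.18, limma adjusted p = 0.846). Hist1h1e was at 2.53 and 2.37 FPKM in WT and at 3.58 and 3.21 in dKO (log2 difference 0.35, SE 0.108, limma adjusted p = 0.245). The dKO libraries were the higher ones, by more than the gap within either group.
Hist1h1d was at 1.19 and 1.27 FPKM in WT and at 1.81 and 2.86 in dKO (log2 difference 0.56, SE 0.194, limma adjusted p = 0.276). Hist1h1b was at 0.825 and 0.341 FPKM in WT and at 1.42 and 1.13 in dKO (log2 difference 0.54, SE 0.212, limma adjusted p = 0.312). With WT_1 left out the difference of Hist1h1b was 0.32, and with dKO_1 left out that of Hist1h1d was 0.33. In these 3 rows both dKO libraries were on top, as in 27.8% of all rows tested, and Hist1h1b passed the level filter through them. Outside the 27, Hist1h1a stood at 1, 1, 9 and 11 fragments in WT_0, WT_1, dKO_0 and dKO_1, or 0.09, 0.0745, 0.662 and 0.755 FPKM, with dKO again above WT. Hist1h1t, the testis H1, was listed at 0 in every library.

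The H2A rows divided by gene. Hist3h2a was the most abundant of all 68 rows, at 32.7 and 36.7 FPKM in WT and 25.1 and 26.5 in dKO, from 204, 277, 192 and 217 fragments. Both dKO libraries lay below both WT libraries, with a log2 difference of -0.41 (SE 0.0816, limma unadjusted p = 0.00607, adjusted p = 0.158). Its locus is overlapped on the same strand by annotated Trim17, and by Gm44313 on the opposite strand, so fragments of these genes may be counted in it.
The other 3 reported H2A rows lay the other way at much lower levels. Hist2h2ac was at 0.553 and 1.22 FPKM in WT and at 2.11 and 2.95 in dKO, from 3, 8, 14 and 21 fragments (log2 difference 0.92, SE 0.242, limma unadjusted p = 0.0168, adjusted p = 0.208). Hist1h2ak was at 1.026 and 0.971 FPKM in WT and at 1.92 and 1.57 in dKO, from 7, 8, 16 and 14 fragments (log2 difference 0.45, SE 0.138, limma adjusted p = 0.244). Hist1h2ai was listed at 0 in WT_0 and stood at 1.16, 2.77 and 1.22 FPKM in WT_1, dKO_0 and dKO_1. Its lower dKO library and WT_1 were nearly level, at 8 and 7 fragments before depth is considered.
Summed over all 18 H2A rows, the level was 35.9, 43.2, 35.6 and 35.3 FPKM. Without Hist3h2a the other 17 rows summed to 3.29, 6.53, 10.4 and 8.76 FPKM, with both dKO libraries above both WT libraries. The ratio of these sums, dKO over WT, was 1.95. The exact Poisson 95% intervals of their fragments, scaled to the depth of WT_0, overlapped, at 23.7 to 45.1 in WT_1 and 37.0 to 61.5 in dKO_1.

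Hist2h2ac and Hist2h2be, an H2A and an H2B gene of the Hist2 cluster, are neighbours that are transcribed away from each other from 1 short gap. Hist2h2ac occupies 96220413 to 96220880 and Hist2h2be 96221072 to 96223738 of chromosome 3. The promoter window of Hist2h2ac is printed because it covers that gap, and because the genes on its flanks lay in opposite directions in dKO. It is the RefSeq window from 250 bases before to 50 bases after the start, on the minus strand at chr3:96220831-96221130 (GRCm38.p6), with capitals marking the word CCAAT, the word TATAAA and the octamer ATTTGCAT on either strand.
Hist2h2ac promoter: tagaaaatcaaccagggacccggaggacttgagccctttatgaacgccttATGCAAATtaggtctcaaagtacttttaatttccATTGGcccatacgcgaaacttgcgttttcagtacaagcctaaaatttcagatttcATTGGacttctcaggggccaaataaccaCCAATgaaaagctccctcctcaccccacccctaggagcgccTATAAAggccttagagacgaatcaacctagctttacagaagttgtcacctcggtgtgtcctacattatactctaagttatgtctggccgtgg
The window holds 3 CCAAT words, 1 TATAAA and 1 octamer. Taking the window listed first for each gene, among the 61 histone rows with a RefSeq promoter window 85.2% held CCAAT on either strand, against 37.9% of 27025 windows of all genes. TATAAA stood in 57.4% of the histone windows and 14.2% of all windows, and the octamer in 21.3% and 1.75%. CCAAT was in every H1, H2A, H2B and H3 window but in 3 of the 12 H4 windows. The octamer occurred in 7 of 17 H2A and 6 of 16 H2B windows and in no H1, H3 or H4 window, and a further window of Hist1h2be, an H2B gene, also holds it. These are matches of letters and not measured binding sites.

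Among H2B rows, no common direction was seen. Hist3h2ba stood highest, at 7.17, 9.99, 9.26 and 12.7 FPKM in WT_0, WT_1, dKO_0 and dKO_1, and its groups overlapped (log2 difference 0.32, limma adjusted p = 0.500). Hist1h2bc was at 6.22 and 5.54 FPKM in WT and at 3.59 and 3.42 in dKO, so that both dKO libraries lay below both WT libraries. Its log2 difference of -0.61 (SE 0.0988, limma unadjusted p = 0.00274, adjusted p = 0.125) had the smallest p of the 27 rows. The level of that row is uncertain between copies, since 2.43% of its coding 50-mers occur in no other gene and its values gave no whole fragments.
Hist2h2be, the neighbour of Hist2h2ac, was at 3.29 and 3.45 FPKM in WT and at 2.95 and 2.83 in dKO, from 163, 207, 179 and 184 fragments (log2 difference -0.17, SE 0.0978, limma adjusted p = 0.457). Both dKO values were the lower ones, by a margin larger than the gap within either group. Hist2h2be has 100% of its coding 50-mers to itself.
Hist2h2bb, also in the Hist2 cluster, was at 0.168 and 1.25 FPKM in WT and at 1.93 and 3.47 in dKO, from 1, 9, 14 and 27 fragments. Its log2 difference of 1.16 (SE 0.403, limma adjusted p = 0.278) was the largest of the 27, and the values within each group were also far apart. Without WT_0 it was 0.68. Annotated Gm42743 overlaps this locus on the same strand and Gm20628 on the opposite strand.
The remaining H2B rows were near the level filter. Hist1h2bj was at 0.865 and 0.537 FPKM in WT and at 1.24 and 1.32 in dKO (a log2 difference of 0.43 with a limma adjusted p = 0.307). Hist1h2bg, at 1.31, 2.01, 1.99 and 0.857 FPKM, and Hist1h2bb, at 1.19, 0.423, 0.696 and 1.04 FPKM, overlapped between groups.

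The H3 rows were the least abundant type. Hist1h3a stood at 1.14, 1.08, 0.668 and 1.25 FPKM in WT_0, WT_1, dKO_0 and dKO_1 (log2 difference -0.13, limma adjusted p = 0.776). Hist2h3b, of which 5.85% of coding 50-mers are its own, stood at 0.98, 1.22, 0.401 and 1.87 FPKM (log2 difference -0.06, limma adjusted p = 0.945). In both rows the dKO libraries held the lowest and the highest value of the 4. Hist1h3d was at 0.811 and 1.34 FPKM in WT and at 1.86 and 1.36 in dKO (a log2 difference of 0.33 with a limma adjusted p = 0.464), with dKO_1 just above WT_1. Over all 12 H3 rows the sum was 5.42, 4.20, 5.67 and 7.76 FPKM.

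Of the 5 types, H4 had the highest ratio of summed FPKM, dKO over WT. Of the 9 reported H4 rows, 8 had a higher mean log2 level in dKO, against 52.8% of all rows tested. Both dKO libraries lay above both WT libraries in 5 (background 27.8%) and below them in none (background 23.4%). The median log2 difference was 0.65, and 0.36 to 0.75 with 1 library left out at a time, the lowest without WT_0. Hist1h4d was at 4.44 and 2.94 FPKM in WT and at 8.96 and 6.78 in dKO (log2 difference 0.93, SE 0.215, limma unadjusted p = 0.0106, adjusted p = 0.178). Hist1h4i, the most abundant H4 row, was at 8.80 and 9.71 FPKM in WT and at 13.8 and 11.4 in dKO, from 36, 48, 69 and 61 fragments (log2 difference 0.40, SE 0.118, limma unadjusted p = 0.0239, adjusted p = 0.231). In both rows the lower dKO library stood above the higher WT library.
Hist1h4b was at 4.35 and 1.80 FPKM in WT and at 5.18 and 6.34 in dKO, from 22, 11, 32 and 42 fragments (log2 difference 0.80, SE 0.34, limma adjusted p = 0.341), which was 0.33 without WT_1 and 1.27 without WT_0. Hist2h4, on chromosome 3, was at 2.43 and 3.35 FPKM in WT and at 3.76 and 6.80 in dKO (a log2 difference of 0.66 with a limma adjusted p = 0.344). Hist1h4c was at 1.70 and 3.06 FPKM in WT and at 5.35 and 3.25 in dKO (a log2 difference of 0.65 with a limma adjusted p = 0.361). These 3 rows did not overlap between the groups, but their values within a group were far apart.
In Hist4h4, the single gene of its cluster, dKO_0 lay between the WT libraries, at 3.31, 1.54, 2.2 and 6.48 FPKM (log2 difference 0.56, limma adjusted p = 0.607). Hist1h4j was listed at 0 in WT_0 and stood at 1.46, 1.44 and 1.68 FPKM in WT_1, dKO_0 and dKO_1. Hist1h4k, at 1.42, 1.77, 2.52 and 1.27 FPKM, and Hist1h4m, at 2.42, 2.2, 1.19 and 2.77 FPKM, overlapped as well, and all coding 50-mers of Hist1h4m occur in Hist1h4n or another gene.

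Sums over a type depend less than single rows on how fragments were divided between near-identical copies, although copies differ in length and some, such as Gm20634 beside Hist2h3b, lie outside these rows. Summed over all 13 H4 rows, the level was 32.8 and 29.0 FPKM in WT and 47.2 and 48.8 in dKO, a mean of 30.9 ± 2.73 (SD, n = 2) against 48.0 ± 1.13 (SD, n = 2) and a ratio of 1.55. Over the 10 H4 rows with whole fragments, the counts scaled to the depth of WT_0 were 112 (exact Poisson 95% interval 92.2 to 135) in WT_0 and 107 (89.2 to 127) in WT_1. They were 160 (139 to 184) in dKO_0 and 176 (154 to 201) in dKO_1, so the dKO intervals lay above the WT intervals. The gap between the groups was larger than the spread within each group. H4 was singled out by these same values, and the intervals take fragments as independent. The gap is therefore a description and not support for a difference. With 2 libraries against 2, the smallest 2-sided exact permutation p is 0.333, so an exact test of these sums cannot reach 0.05 and none is given, and whether H4 differed from the other types was not tested.
The other types were closer. H1 summed to 17.1, 14.7, 20.3 and 17.1 FPKM in WT_0, WT_1, dKO_0 and dKO_1, with WT_0 and dKO_1 almost level, and a ratio of 1.18. H2B summed to 22.3, 25.1, 25.8 and 30.3 FPKM with a ratio of 1.18, H3 had a ratio of 1.40 and H2A of 0.894. All 68 rows together summed to 114 and 116 FPKM in WT and to 135 and 139 in dKO, a ratio of 1.19. The Poisson intervals of their fragments at the depth of WT_0 overlapped, at 754 to 856 in WT_1 and 816 to 922 in dKO_0. Without Hist3h2a, the most abundant row and one lower in both dKO libraries, the sums were 80.9, 79.6, 109 and 113 FPKM, a ratio of 1.39. That row was left out with its values known, which raises the ratio, so these sums are not support for a difference. As for H4, the Poisson intervals of the fragments without Hist3h2a, at the depth of WT_0, were apart. They were 527 to 622 and 533 to 619 in WT, and 664 to 760 and 682 to 775 in dKO. By cluster, the Hist1 rows summed to 61.7, 56.3, 86.5 and 74.9 FPKM, with dKO above WT. Their fragment intervals were apart too, at 295 to 368 and 277 to 341 in WT and 426 to 504 and 380 to 450 in dKO. The Hist3 rows summed to 40.6, 46.9, 34.7 and 39.5 FPKM, with dKO below WT. Their fragment intervals overlapped, at 216 to 279 in WT_0 and 209 to 262 in dKO_1. The Hist2 sums overlapped, at 8.0, 11.5, 11.1 and 18.4 FPKM.
Split by the annotated end of the transcript, the 8 rows with a poly(A) signal word in the last 60 bases had dKO above WT in 2, below in 2 and overlapping in 4, with a median log2 difference of 0.36. The other 19 reported rows had dKO above WT in 12, below in 1 and overlapping in 6, with a median of 0.43. Over all rows tested, dKO lay above WT in 27.8% and below in 23.4%. The split by annotated end was described and not tested.

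**Figure D2:**
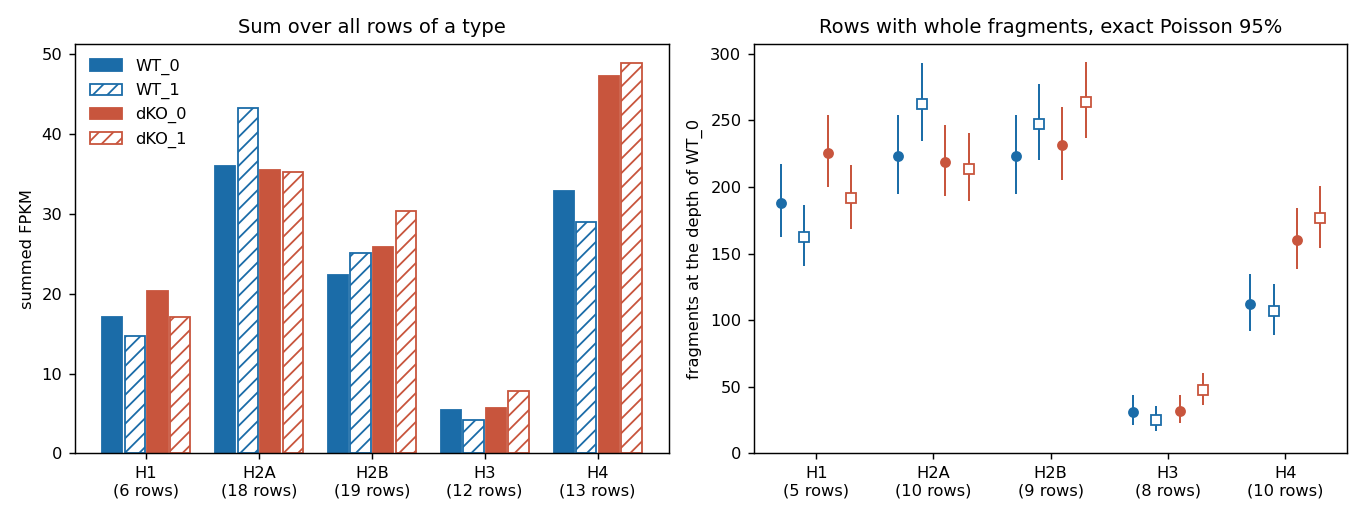
The left panel gives FPKM summed over all rows of each histone type in each library. The right panel gives the fragments of the rows with whole fragments, scaled to the depth of WT_0, with exact Poisson 95% intervals. H4 is the type in which both dKO intervals lie above both WT intervals.

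Of the 41 rows that did not pass the level filter, 13 were listed at 0 in every library, 18 were above 0 but under 1 FPKM throughout, with a highest value of 0.829, and 10 reached 1 FPKM in 1 library. That library was dKO_1 in 5 rows, dKO_0 in 3, WT_0 in 1 and WT_1 in 1. In dKO_1 they were Hist1h2ae (0.275, 0.797, 0.675 and 1.47 FPKM in WT_0, WT_1, dKO_0 and dKO_1), Hist1h2bk (0.164, 0.136, 0.269 and 1.25), Hist1h2bm (0.349, 0.144, 0.285 and 2.0), Hist1h3c (0.705, 0, 0.865 and 1.48) and Hist1h3h (0.514, 0.142, 0.28 and 1.31). In each of these the value of dKO_1 stood alone above 1.
In dKO_0 they were Hist1h2ab (0.162, 0.535, 1.72 and 0.37 FPKM), Hist1h2bf (0, 0.355, 1.05 and 0) and Hist1h4h (0.843, 0.872, 2.58 and 0.965). The remaining ones were Hist1h4f (2.52, 0.261, 0.257 and 0.961 FPKM) in WT_0 and Hist2h2ab (0.208, 1.033, 0 and 0.476) in WT_1. Hist1h4h and Hist1h4f lay just outside the filter, with a second-highest value of 0.965 and 0.961 FPKM, while Hist1h2bb and Hist1h1b lay just inside it, at 1.04 and 1.13 FPKM.
In the authors' deposited table, 1 of the 68 rows had a q under 0.05, against 1.54% of all 24346 rows. It was Hist1h2bh, with a q of 0.0326 and 6 fragments in each dKO library, or 0.751 FPKM in dKO_0 and 0.701 FPKM in dKO_1, where WT_0 and WT_1 were both listed at 0. It did not reach 1 FPKM and was not in the limma test. For the 27 reported rows, q values in the authors' deposited table began at 0.695.

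How far a row can be told from its copies differed widely. The share of coding 50-mers found in no other gene had a median of 0% over the 13 rows listed at 0, of which 8 had none, and of 27.9% over the 54 other rows with a coding sequence. Hist1h2ao and Hist1h2ap, whose coding sequences are identical, were among the rows at 0. The sources used here do not give how reads with several matches were counted. Of the 27 reported rows, 16 had under 50% of their 50-mers to themselves, and for these the level of the single row is uncertain. In those 16 rows the median log2 difference was 0.37 and 11 were higher in dKO. In the 11 more distinct rows it was 0.54 and 8 were higher, against 52.8% of all rows tested.

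**Figure D3:**
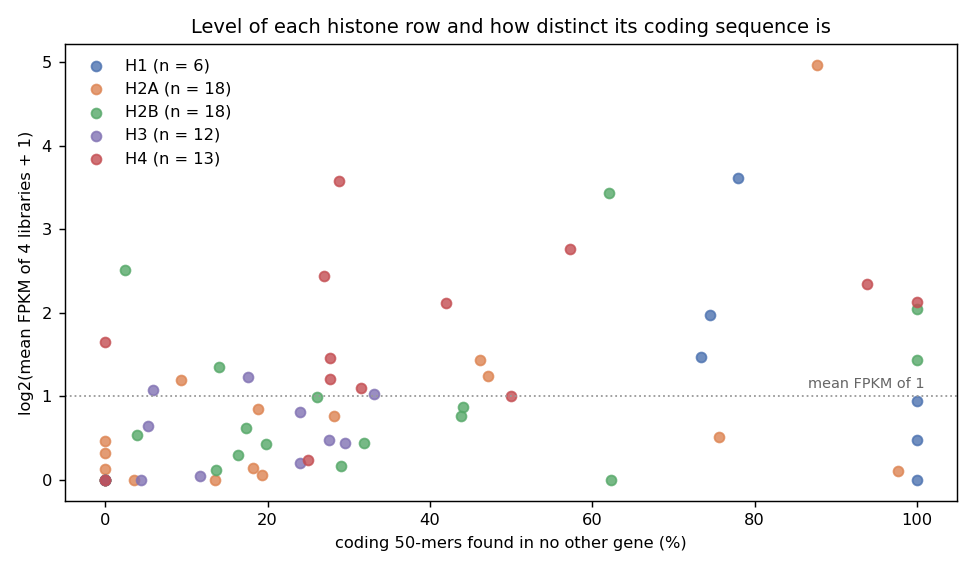
Each point is 1 of 67 histone rows with a coding sequence, coloured by type. The x axis is the percentage of its coding 50-mers found in no other gene of GENCODE M21, and the y axis is log2 of its mean FPKM over the 4 libraries plus 1. Of the 13 rows at 0, 8 lie at 0% on the x axis, while Hist1h1t (100%) and Hist1h2ba (62.4%) lie to the right, and Hist3h2a stands alone at the top.

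Variant histones, most of which are made outside S phase too, from genes with polyadenylated transcripts, stood at higher levels in the genes named here. Of 10 tested, 0 were called. At an unadjusted limma p under 0.05, 5 were higher (background 9.64%) and 0 lower (background 7.08%). The median log2 difference of the 10 was 0.22. H2afx, the H2A form phosphorylated at DNA breaks, stood at 45.0 and 39.3 FPKM in WT and at 58.6 and 58.7 in dKO (a log2 difference of 0.47 with a limma adjusted p = 0.141). Cenpa, the H3 variant of centromeres, stood at 36.0 and 29.4 FPKM in WT and at 49.1 and 54.2 in dKO (a log2 difference of 0.65 with a limma adjusted p = 0.148). H3f3b, which encodes H3.3, was at 206 and 201 FPKM in WT and at 245 and 243 in dKO, and H2afy, the gene of macroH2A1, at 162 and 174 in WT and at 204 and 206 in dKO. In all 4 genes, which had the smallest p of the 10, both dKO libraries were above both WT libraries. Over the 10 this held for 6 (background 27.8%), and the other 4 overlapped. H2afj (-0.09), H3f3a (-0.04) and H1f0 (-0.05, log2 differences) had a lower mean log2 level in dKO. The H3 rows summed to between 0.917% and 1.58% of the summed FPKM of H3f3a and H3f3b in the 4 libraries, and the H2A rows to between 4.56% and 8.36% of that of H2afz and H2afv. The H1 rows summed to between 49.6% and 64.4% of the FPKM of the linker variant H1f0.

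Of the factors that transcribe histone genes and form their 3′ ends, 25 were tested and 0 were called. At an unadjusted limma p under 0.05, 3 were higher (background 9.64%) and 0 lower (background 7.08%). The median log2 difference of the 25 was -0.00. Slbp, which binds the stem-loops printed above, had the smallest p of them. It stood at 40.4 and 36.1 FPKM in WT and at 50.5 and 51.3 in dKO (log2 difference 0.41, SE 0.0757, limma adjusted p = 0.15). Smaller differences were seen for Ncbp2 of the cap-binding complex (0.19), Nfyb of the CCAAT-binding factor NF-Y (0.17) and the endonuclease Cpsf3 that cleaves histone pre-mRNA (0.12, log2 differences). The median of this list was close to that of all rows, and Slbp had its largest difference.
Of the cyclin E-CDK2 and E2F list, 8 were tested and 0 were called. At an unadjusted limma p under 0.05, 5 were higher (background 9.64%) and 0 lower (background 7.08%). Cyclin E1 (Ccne1) was at 5.86 and 4.83 FPKM in WT and at 8.91 and 9.44 in dKO (a log2 difference of 0.69 with a limma adjusted p = 0.125), and Ccna2 (0.85), Ccne2 (0.57) and E2f2 (0.27, log2 differences) followed. Of 21 histone chaperones tested, 0 were called, and at an unadjusted limma p under 0.05, 4 were higher (background 9.64%) and 1 lower (background 7.08%). The higher ones were the replication-coupled assembly factors Chaf1b (0.58), Chaf1a (0.70) and Asf1b (0.71), and Ssrp1 of FACT (0.20, log2 differences). The lower one was Hjurp, at 6.24 and 6.09 FPKM in WT and at 4.62 and 5.29 in dKO (log2 difference -0.27).

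Genes of DNA replication and mitosis lay in 1 direction. All 39 replication genes tested had a higher mean log2 level in dKO, against 52.8% of all rows tested. Both dKO libraries lay above both WT libraries in 38 of them (background 27.8%). At an unadjusted limma p under 0.05, 29 were higher (background 9.64%), with a median log2 difference of 0.46 and 0 calls. Those with the smallest p were Tipin, which stabilises forks (0.67), the licensing inhibitor Gmnn (0.77), the helicase subunit Mcm3 (0.72) and the ribonucleotide reductase subunit Rrm2 (0.92, log2 differences). All 20 mitosis genes tested were higher without overlap (background 27.8%), 18 of them at an unadjusted limma p under 0.05 (background 9.64%). Their median log2 difference was 0.83, with 0 calls. The smallest p were those of Tpx2 (0.73), Birc5 (0.95), Kif11 (0.76) and Prc1 (0.80, log2 differences). WT_1 was the lowest library in 35 of the 39 replication genes and in all 20 mitosis genes, and dKO_1 the highest in 28 and 18. The 0 calls of these lists depend on the libraries and rows fitted. Without WT_0, limma called 11 replication genes, 11 mitosis genes, the variants Cenpa and H2afx, the chaperone Asf1b and Ccna2. Without WT_1 it called the replication genes Gmnn and Rrm2 and the mitosis gene Birc5, and with small RNA rows left out Gmnn, Mcm3, Rrm2 and Tipin. With any 1 of the 4 libraries left out, it called no histone row. The part of the replication genes in the histone values was not tested, and in bulk RNA more cells in S phase and more histone RNA per cell cannot be told apart.

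**Figure D4:**
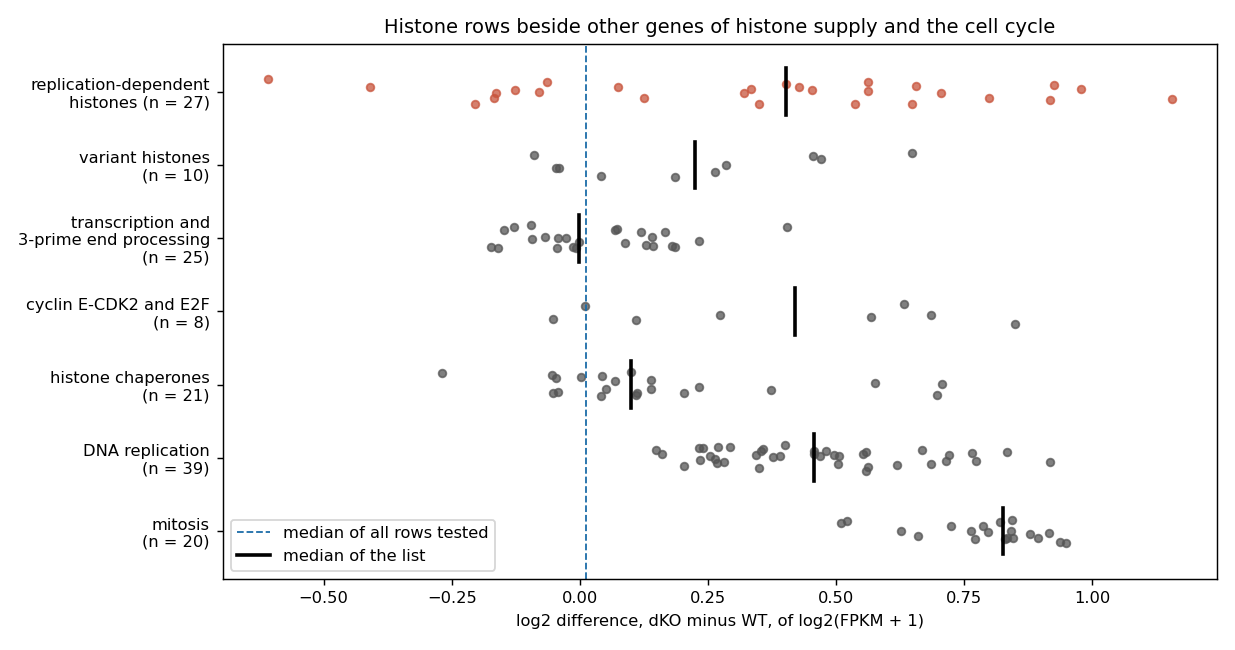
Each point is 1 tested gene, at its dKO minus WT difference on the log2(FPKM + 1) scale, with a black bar at the median of its list and a dashed line at the median of all rows tested (0.01). Histone rows span -0.61 to 1.16 on both sides of 0, while all mitosis and replication genes lie above 0.

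Markers of other cells were counted in the same libraries. Of 13 B cell markers tested, 13 were higher in dKO, against 52.8% of all rows tested. Libraries overlapped in 8 of the 13, WT_1 was lowest in 12, and 0 had an unadjusted limma p under 0.05. The list summed to 618 and 524 FPKM in WT and 625 and 812 in dKO. Cd74 held the largest part of these sums, at 472 and 468 FPKM in WT and 484 and 598 in dKO. Of 13 monocyte and macrophage markers, 0 were higher, with sums of 623 and 755 FPKM in WT and 539 and 534 in dKO. Plasma cell markers summed to 290 to 401 FPKM in WT and 198 to 239 in dKO. Jchain held the largest part of these sums, at 281 and 213 FPKM in WT and 152 and 102 in dKO. Of the 7 plasma cell markers tested, 4 had both dKO libraries below both WT libraries (background 23.4%). Prdm1 lay the other way, at 8.30 and 4.59 FPKM in WT and 12.6 and 12.8 in dKO, and Xbp1 and Mzb1 overlapped. NK cell markers summed to 141 to 177 FPKM in WT and 113 to 128 in dKO. Tyrobp held the largest part of these, at 102 and 130 FPKM in WT and 97.9 and 82.4 in dKO. Of the 10 NK cell markers tested, 9 had both dKO libraries below both WT libraries (background 23.4%). Eomes lay the other way, at 3.48 and 3.08 FPKM in WT and 5.48 and 4.89 in dKO. Erythroid and neutrophil lists were highest in WT_0, at 284 and 394 FPKM, with other libraries between 40.6 and 199.8 and between 75.3 and 121. CD8 T cell markers summed to 8.21 to 8.43 FPKM in WT and 9.80 to 10.1 in dKO, against 2350 to 2518 for Treg and T cell markers in the 4 libraries. No marker of these lists found in the table was at 0 in every library. The part of these cells in the histone values was not tested.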

How the data were processed

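Treg RNA was sequenced in 2 WT and 2 dKO libraries. The submitters' processing notes name FastQC, TopHat2 2.1.0, Cuffdiff 2.2.1 and mm10. For the gene annotation, strand setting and handling of reads with several matches, nothing is given in the sources used here. Values deposited by the authors were FPKM per library and as group means, with their own log2 fold changes, p-values and q-values for 24346 rows. The library columns carry suffixes 0 and 1 that no label explains, so each was tied to its group alone. Separate animals per library are not stated, and a p-value here reflects how far 2 libraries of a group differ, technical causes included.

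Since FPKM cannot go into a count test, log2(FPKM + 1) was tested with limma 3.58.1 in R 4.3.3 (intensity trend, two-sided, Benjamini-Hochberg over all 11595 rows with FPKM of at least 1 in at least 2 libraries). This scale understates differences of low rows. The fit was checked on simulated data. Fragments were read from FPKM steps (relative tolerance 6e-05) where the RefSeq length fixed the multiple (tolerance 0.03). 67 of 68 rows matched 1 RefSeq entry, and all 68 a GENCODE M21 gene. Stem-loops were sought after the coding sequence as a 16-base pattern, and a row without a match can have a loop of other letters or a transcript model that stops before it.

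Members and lists were chosen with earlier results of these data known. All histone rows that passed the level filter are named, with those that reached 1 FPKM in 1 library, and the 4 genes with the smallest p of each other list. Alternatives were a pseudocount of 0.1, no level filter or one in all 4 libraries, quantile and median scaling, no trend, small RNA rows left out, each library left out, and a block by column suffix.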

Additional observations from a re-analysis of the deposited data

How the results depend on the processing

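Limma called 0 of the histone rows under each of the 13 alternatives, while unadjusted p-values under 0.05 numbered 7 (higher) and 2 (lower) in the reported fit. With a replicate block by column suffix, the count of called histone rows was 0, of 7 called rows in all. The suffix differences of the groups correlated at -0.11 over rows, and the crossed pairing, chosen after seeing the data, gave 0 histone calls of 22. The suffixes share a number alone, so neither pairing is taken as a design. Over all rows, 179 were called with small RNA rows left out, 132 with FPKM of at least 1 in all 4 libraries, 16 without a filter, 177 without WT_0, 217 without WT_1 and 2 without either dKO library. A fit without a library leaves 1 in its group, which is assumed to vary like the others. The median log2 difference of the H1 rows, 0.44 as reported, was 0.65 with a pseudocount of 0.1, 0.54 with no filter and 0.35 with the filter in all 4 libraries. That of the H2A rows, 0.69 as reported, was 1.11, 0.19 and -0.41, the last from Hist3h2a alone. That of the H2B rows, 0.07 as reported, was -0.17 with the filter in all 4 libraries. That of the H3 rows, -0.06 as reported, was 0.0902 with no filter, and no H3 row was left with the filter in all 4 libraries. With 1 library left out at a time, these medians ranged from 0.29 to 0.46 for H1, 0.45 to 0.80 for H2A, -0.0439 to 0.11 for H2B and -0.10 to 0.20 for H3. The H4 median was 0.65 as reported and 0.36 to 0.75 with a library left out. The ratios of summed FPKM were recomputed over the rows that passed the filter alone, where H3 went from 1.40 to 1.13, H2B from 1.18 to 1.09 and H4 from 1.55 to 1.61, each within the spread between libraries. With 1 library left out at a time, limma called 0 to 11 DNA replication genes, 0 to 11 mitosis genes, 0 to 2 variant histones, 0 to 1 chaperone and 0 to 1 gene of the cyclin E-CDK2 and E2F list, the highest count without WT_0 in each. Leaving out small RNA rows gave calls of the DNA replication genes Gmnn, Mcm3, Rrm2 and Tipin, 4 in all. Of 331 differences of single histone rows under the alternatives, 10 had the other sign, in 8 rows and all with a library left out. Their ranges were -0.31 to 0.14 for Hist1h1c, -0.24 to 0.21 for Hist1h2bb, -0.51 to 0.18 for Hist1h2bg, -0.34 to 0.089 for Hist1h3a, -0.19 to 0.44 for Hist1h4k, -0.60 to 0.19 for Hist1h4m, -0.14 to 0.45 for Hist2h3b and -0.0486 to 1.18 for Hist4h4. Another 10 rows kept their sign and moved by over 1.5 times, to 0.32 at the lowest for Hist1h1b, 0.33 for Hist1h1d, 0.42 for Hist1h2ai, 0.15 for Hist1h3d, 0.33 for Hist1h4b, 0.36 for Hist1h4c, 0.057 for Hist1h4j, 0.68 for Hist2h2bb, 0.30 for Hist2h4 and 0.11 for Hist3h2ba. Depth limits the low rows, many of which rest on fewer than 20 fragments per library.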
